A study of Mus musculus with 6 samples.

Results

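Zinc transporters and metallothioneins were examined in mouse prostates, in 4 samples from castrated mice and 2 from intact mice. Members were taken by gene symbol: any gene named Slc30a or Slc39a with a number, the metallothioneins Mt1 to Mt4, and Mtf1 and Mtf2. This gave 30 of the 24421 genes in the deposited files: 4 metallothioneins, the 2 Mtf genes, 10 Slc30a genes and 14 Slc39a genes. Both groups were prostate tissue of the genotype PB-Cre4;PTENLoxP/LoxP, in which a probasin promoter drives Cre recombinase in prostate epithelium. Cells in which that promoter is silent keep their floxed alleles intact. The labels give neither the mice's age nor the time since castration, and no sample of another genotype was part of the comparison. They do not say whether samples came from separate animals, so p-values rest on a spread among samples that may be technical only.

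As background, zinc enters the cytosol through SLC39 proteins (also called ZIP) and leaves it, to the outside or into organelles, through SLC30 proteins (also called ZnT). Metallothioneins are small cysteine-rich proteins that bind zinc and copper in the cytosol. The zinc finger protein MTF-1 (gene Mtf1) senses free zinc and switches on Mt1, Mt2 and Slc30a1 through short DNA motifs called metal response elements. Prostate epithelium is known for an unusually high zinc content, which limits citrate oxidation, and glucocorticoid and androgen receptors can also induce metallothioneins. Mtf2, despite its symbol, encodes a Polycomb-like chromatin protein.

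Promoter windows of 3 metal-responsive genes are shown because Mt1, Mt2 and Slc30a1 share this regulator and their values are set side by side here. Each runs 5′ to 3′ on the plus strand from 250 bases before to 50 bases after the RefSeq gene start in GRCm38.p6. Capitals mark matches to the metal response element core, searched as TGCACNC and TGCGCNC on both strands. The windows are chr8:94178839-94179138 for Mt1, chr8:94172368-94172667 for Mt2 and chr1:191906531-191906830 for Slc30a1.
Mt1: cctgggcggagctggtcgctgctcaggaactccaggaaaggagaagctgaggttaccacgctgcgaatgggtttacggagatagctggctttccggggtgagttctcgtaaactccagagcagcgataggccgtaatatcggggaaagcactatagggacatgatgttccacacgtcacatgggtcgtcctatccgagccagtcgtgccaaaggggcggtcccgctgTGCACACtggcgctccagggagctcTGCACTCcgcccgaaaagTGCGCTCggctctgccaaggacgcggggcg
Mt2: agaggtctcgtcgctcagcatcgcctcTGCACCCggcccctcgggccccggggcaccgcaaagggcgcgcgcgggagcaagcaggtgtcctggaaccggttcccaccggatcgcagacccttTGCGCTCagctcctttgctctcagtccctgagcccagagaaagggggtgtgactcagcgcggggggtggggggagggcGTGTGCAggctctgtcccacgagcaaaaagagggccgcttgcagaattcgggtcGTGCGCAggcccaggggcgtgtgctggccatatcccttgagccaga
Slc30a1: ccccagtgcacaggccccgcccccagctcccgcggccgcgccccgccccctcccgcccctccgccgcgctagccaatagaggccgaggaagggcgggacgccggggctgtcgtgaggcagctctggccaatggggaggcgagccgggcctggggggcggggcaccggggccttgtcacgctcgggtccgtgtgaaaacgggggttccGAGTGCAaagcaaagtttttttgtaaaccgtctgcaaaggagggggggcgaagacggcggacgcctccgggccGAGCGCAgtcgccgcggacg
The Mt2 window held 4 matches, the Mt1 window 3 and the Slc30a1 window 2. In the Mt1 window, TGCACTC and TGCGCTC began at bases 3 and 21 counted from the listed start. Which start these samples use was not examined, so the counts hold for the listed starts alone. Of the 32851 promoter windows in the RefSeq table, 25.7% held at least 1 match, 7.11% at least 2, 1.97% at least 3 and 0.517% at least 4. Windows were listed for 26 of the 30 members. Those of Slc30a4 and Slc30a10 also held 3, with 2 of the matches in Slc30a10 lying on opposite strands of the same bases. Mt3 and Mt4 had 1 match each, and the Mtf1 window had 0. The letters AGAACA, the half-site that steroid receptors such as the androgen receptor bind, were found on neither strand of the Mt1, Mt2, Mt3, Mt4 or Slc30a1 windows, against 19.0% of windows with a match. A match is a description of the letters in this window, not a shown binding site. As most windows lack AGAACA, its absence from these few says little, and sites outside the windows were not searched.

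Reads in genes numbered 43679297 to 59170793 in the 6 libraries. Values are rescaled CPM, the deposited CPM (reads scaled to a sum of 1000000) divided by a size factor for each sample. Luminal epithelial markers (5 of 5 tested, 0 called) summed to 4712 to 7026 in castrated and 5869 to 6279 in intact samples. The sum hides differing members. Cldn3 and Epcam were lower in every castrated than in either intact sample (log2 differences -0.52 and -0.32). Krt18 and Cd24a had 0.22 and 0.18 with overlapping groups, and Krt8 had -0.17. The seminal vesicle genes Svs4 and Svs6 had 0 reads in every sample. Castrated sample 4 stood apart: it correlated at 0.941 to 0.970 with the other castrated samples on log2 values, and at 0.951 and 0.952 with the intact ones. The intact samples correlated at 0.979. In castrated sample 4 the 5 endothelial markers summed to 118, against 65.5 to 67.5 in the other castrated samples and 119 and 110 in intact samples. Of the other marker lists, 4 of 4 neutrophil markers and 3 of 4 markers of Foxi1-positive cells rose in limma, of which edgeR called 2 and 0, and 1 of 5 basal markers, Lamb3, fell. The 5 smooth muscle markers summed to 249 to 443 in castrated samples, against 186 and 200 in intact samples, with 0 of the 5 called in limma or edgeR, 4 at an unadjusted p under 0.05 and 4 called in DESeq2. For fibroblasts, macrophages, T, B and fat cells limma called 0 markers. The part of these cells in the members' values was not tested.

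The 3 tested metallothioneins had lower values in every castrated than in any intact sample, whereas 16 of the 23 tested members had a log2 difference within 0.3 of 0. Of those 23, which reached a deposited CPM of 1 in 2 or more samples, 2 fell, Mt2 and Mt3, and 0 rose at an adjusted p under 0.05 in limma. Over all 13898 genes tested, 1.27% fell and 0.698% rose. At an unadjusted p under 0.05, 6 of the 23 were lower, against 8.06% of all genes, and 0 were higher, against 7.84%. The groups did not overlap in 9 of the 23, of which 8 were lower (Mt1, Mt2, Mt3, Slc39a1, Slc39a6, Slc39a7, Slc39a8 and Slc39a14) and 1 higher (Slc30a4). Over all genes the groups lay apart with castrated samples lower in 13.2% and higher in 13.4%. The median log2 difference, castrated minus intact, was -0.05 over the 23 members and 0.00 over all genes tested. Mt3 passed the filter through its intact samples alone, so these counts are a description.

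**Figure D1:**
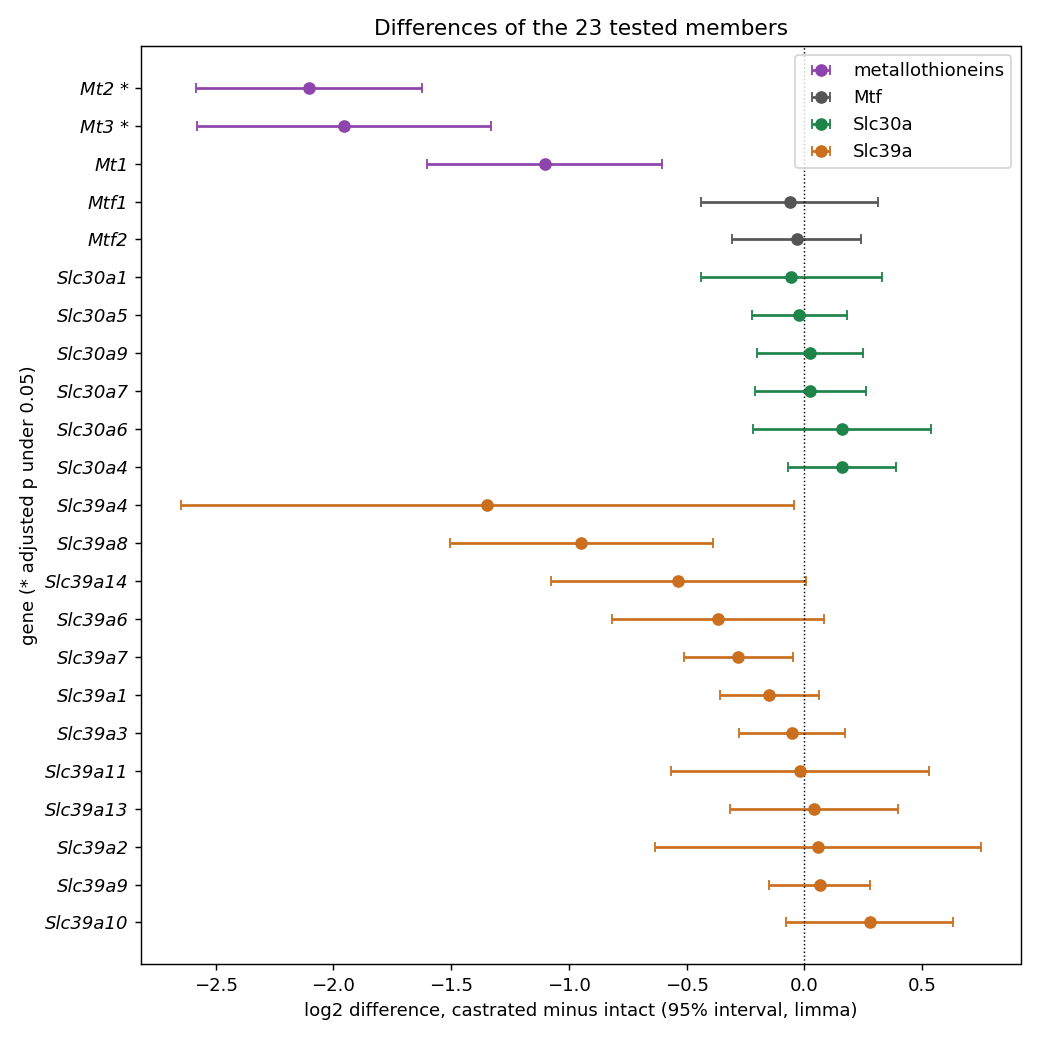
Log2 difference of each of the 23 tested members, castrated minus intact, with its 95% interval from limma, grouped into metallothioneins, Mtf genes, Slc30a and Slc39a genes (asterisk: adjusted p under 0.05). The metallothioneins lie at -1.10 to -2.10, the Slc30a and Mtf genes around 0, and Slc39a4 and Slc39a8 lowest among the importers.

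Without castrated sample 4, limma called 5 members lower, Mt1, Mt2, Mt3, Slc39a4 and Slc39a8, against 4.25% of all genes called lower in that fit. Mt2 alone was called without castrated sample 1, 2 or 3, against 0.442%, 0.448% and 0.275% of all genes. No member was called without intact sample 1 or 2, fits with 9 and 1 calls over all genes. On the recovered reads, edgeR called the same 2 members as limma, against 1.07% of all genes lower. DESeq2 called 4, Mt1, Mt2, Mt3 and Slc39a8, against 4.54%.

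Mt2, a stress-inducible metallothionein found in most tissues (chromosome 8, 94172664 to 94173568), had a log2 difference further from 0 than any other tested member in limma with the pseudocount of 0.5, though not with 0.1, where Mt3 went further. It was at 39.2, 55.3, 47.9 and 43.9 rescaled CPM in castrated samples 1 to 4, against 246 and 163 in intact samples 1 and 2. Every castrated sample lay far below both intact samples, and the castrated samples lay within a narrow range. The mean was 46.6 ± 6.81 (SD, n = 4) in castrated and 204 ± 58.5 (SD, n = 2) in intact samples, a 4.30-fold fall (log2 difference -2.10, 95% interval -2.58 to -1.62, limma adjusted p = 0.00927). The call was lost without intact sample 1 (adjusted p = 0.117) or intact sample 2 (adjusted p = 0.0813), where the fold stayed between 3.51 and 5.28. In those fits the spread came from the castrated samples, and the lone intact sample was assumed to vary like them. The antisense gene Gm45774 covers 73.5% of the exon bases of Mt2. No source used here says if reads were counted by strand, so reads of Gm45774 cannot be told apart from those of Mt2.

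Mt1, the companion isoform that lies 6.4 kb further along the same strand (chromosome 8, 94179082 to 94180327), was at 78.8, 82.7, 84.9 and 52.4 in castrated samples, against 169 and 148 in intact samples. The groups did not overlap, and castrated sample 4 was the lowest. The log2 difference was -1.10 (95% interval -1.60 to -0.60), with an adjusted p of 0.0583 in limma and 0.0581 in edgeR, just outside the threshold, and 9.06e-05 in DESeq2. Without castrated sample 4 the adjusted p in limma was 0.00646, in a fit that called 4.25% of all genes lower. Mt1 was not called without castrated sample 1, 2 or 3. Mt1 and Mt2 transcripts shared 0% of their stretches of 50 bases with transcripts of other genes, each other included.

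The balance between the pair was read as a ratio. That of Mt2 to Mt1 in rescaled CPM was 0.498, 0.669, 0.564 and 0.838 in castrated samples, against 1.45 and 1.10 in intact samples. Mt1 was thus the more abundant by reads in every castrated sample and Mt2 in both intact samples. The log2 ratio differed by -1.01, castrated minus intact, with a two-sided exact permutation p of 0.133, the smallest that 4 against 2 samples can give.

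Mt3, a metallothionein best known from neurons (chromosome 8, 94152607 to 94154146), was scarce in intact samples and nearly absent from castrated ones. It had 1, 2, 3 and 1 reads in castrated samples, against 64 and 93 reads in intact samples. Its share of reads was thus 49.3-fold lower in castrated samples, with an exact 95% interval of 23.4 to 125 for the ratio of intact over castrated, which covers counting error only. With the pseudocount of 0.5, limma gave a log2 difference of -1.95 (adjusted p = 0.0237). That pseudocount sets the size for so weak a gene: it was -3.67 with a pseudocount of 0.1, and edgeR gave -5.56 on the reads. Mt3 passed the filter through its intact samples alone, so its p-values are a description and no support is drawn from them. Leaving out castrated sample 1, 2 or 3 lost the call, at adjusted p of 0.0731, 0.0781 and 0.0796, and without intact sample 1 or 2 the gene fell below the filter. Mt4, known from stratified epithelia such as skin and tongue (chromosome 8, 94137197 to 94139031), had 0 reads in each castrated sample, against 8 and 10 in intact samples. The exact 95% interval for its ratio of intact over castrated reads, scaled to depth, began at 9.66, for counting error only.

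**Figure D2:**
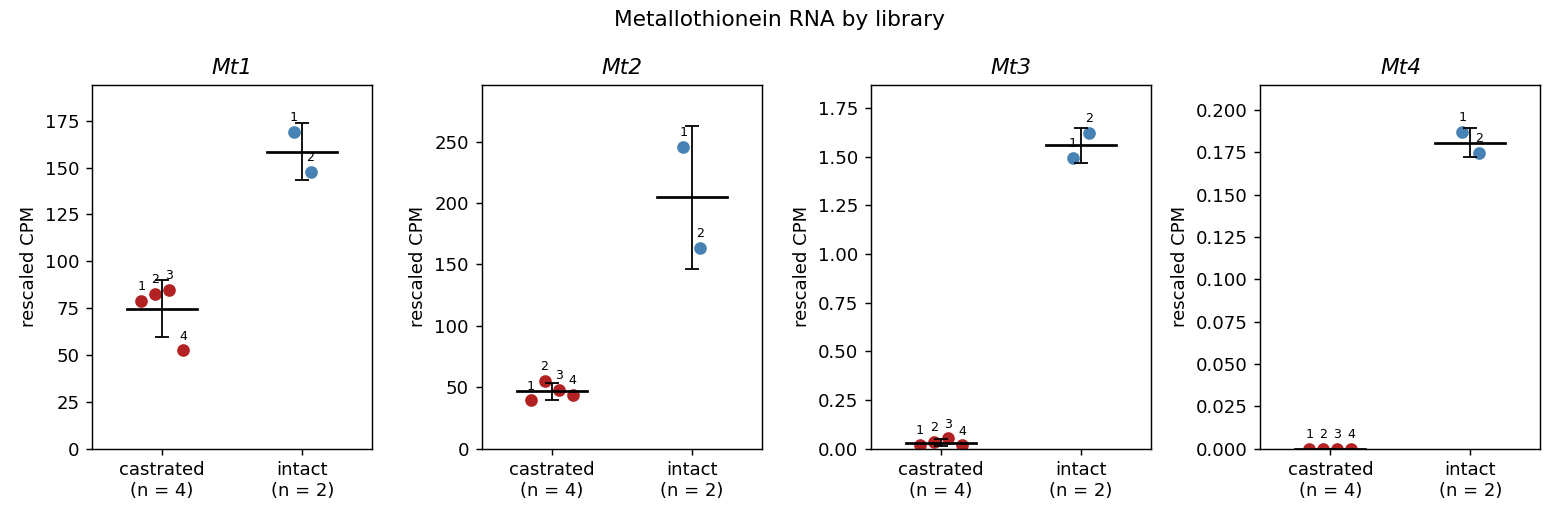
Rescaled CPM of Mt1, Mt2, Mt3 and Mt4 in the 4 castrated and 2 intact samples (points, numbered by sample), with the mean as a line and the SD as a bar, each panel on its own axis from 0. No castrated sample reaches an intact sample in any panel, and Mt3 and Mt4 lie at or near 0 in castrated samples.

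The 4 metallothionein genes lie within 43.1 kb of chromosome 8. Summed over the 4, metallothionein RNA was at 118, 138, 133 and 96.4 rescaled CPM in castrated samples, against 417 and 313 in intact samples. Of the 5 other genes in the files within 150 kb of the start of Mt1, 4 were tested and 0 were called. Their log2 differences ran from -0.16 for Nup93, a nuclear pore gene, to 0.42 for Bbs2, a cilium gene. The interval of Bbs2 ran from 0.10 to 0.74. The values of these 4 neighbours thus lay closer to 0 than those of the 3 tested metallothioneins. In these tissue RNA samples, fewer cells of a type and less RNA per cell cannot be told apart.

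**Figure D3:**
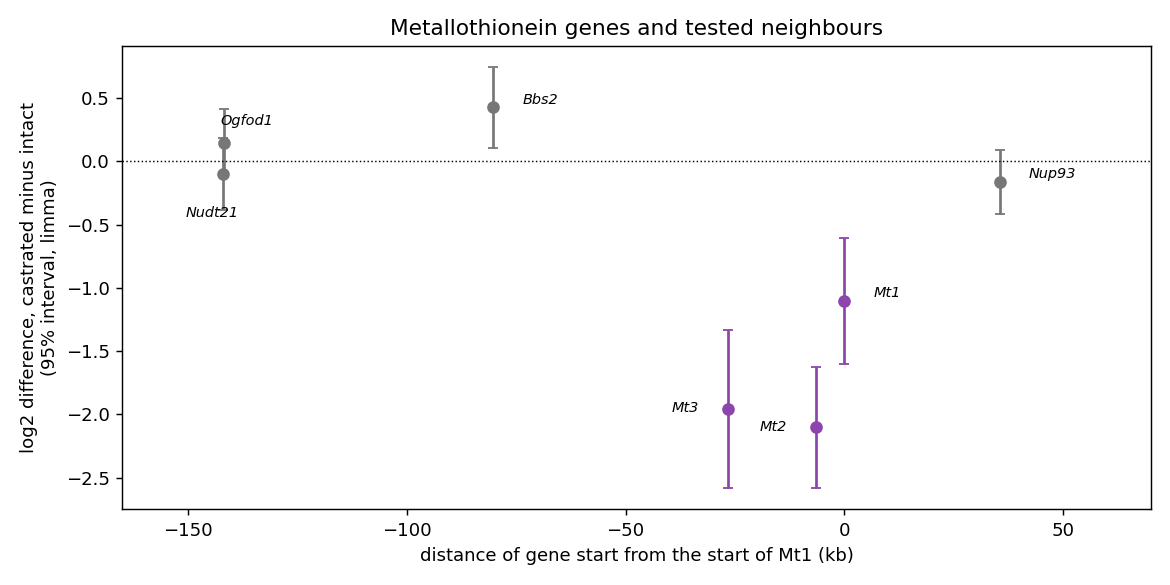
Log2 difference, castrated minus intact, with its 95% interval from limma, plotted against the distance of each gene's start from the start of Mt1 in kb. The 3 tested metallothioneins (purple) lie between -1.10 and -2.10, and the 4 tested neighbours (grey) between -0.16 and 0.42.

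Mtf1, which encodes the zinc sensor (chromosome 4, 124802104 to 124849800), was at 24.9, 25.8, 32.9 and 30.8 in castrated samples, against 32.5 and 27.1 in intact samples. The groups overlapped throughout, with a log2 difference of -0.06 (95% interval -0.44 to 0.31, limma adjusted p = 0.908). Mtf2 had a log2 difference of -0.03 (95% interval -0.31 to 0.24). A fall of the size seen for Mt1 or Mt2 lies outside both intervals. These are RNA levels: the activity of the MTF-1 protein was not measured, and its part in the metallothionein values was not tested.

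Slc30a1, the zinc exporter of the plasma membrane and a target of MTF-1 (chromosome 1, 191906767 to 191913247), differed little between the groups. It was at 41.4, 30.3, 34.8 and 29.1 in castrated samples, against 33.7 and 36.2 in intact samples. The intact values lay inside the castrated range, with a log2 difference of -0.06 (95% interval -0.44 to 0.33, limma adjusted p = 0.921). That interval ended above that of Mt1. An antisense gene covers 8.92% of its exon bases.

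The other tested exporters also had log2 differences near 0. Slc30a5, the highest of them per length, loads zinc into the early secretory pathway (chromosome 13, 100802648 to 100833427) and was at 84.2, 91.2, 91.9 and 87.6 in castrated samples, against 92.2 and 87.7 in intact samples. Its groups overlapped, with a log2 difference of -0.02 (95% interval -0.22 to 0.18, limma adjusted p = 0.949). Slc30a6 and Slc30a7, of the same pathway, had 0.16 and 0.03. Slc30a9, a mitochondrial transporter, had 0.03. Slc30a4, an exporter of endosomal vesicles (chromosome 2, 122681233 to 122702663), was at 81.5, 85.1, 84.8 and 93.2 in castrated samples, against 80.8 and 73.2 in intact samples. Its groups lay apart by less than the spread within either one, with a log2 difference of 0.16 (95% interval -0.07 to 0.39, limma adjusted p = 0.489). Of the 6 tested Slc30a genes 0 were called, and the highest upper end of their intervals was 0.54, for Slc30a6. Summed over its 10 members, Slc30a RNA was at 376 to 409 in castrated and 385 and 377 in intact samples.

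Slc30a2, Slc30a3, Slc30a8 and Slc30a10 stayed below the filter. Slc30a2, which loads zinc into secretory vesicles and is known from the mammary gland (chromosome 4, 134343181 to 134354484), had 0, 2, 0 and 3 reads in castrated samples, against 30 and 142 in intact samples. Its share of reads was 75.6-fold lower in castrated samples (exact 95% interval 31.8 to 236 for intact over castrated), an interval for counting error only. The intact samples themselves were far apart, at 0.700 and 2.48 rescaled CPM. Slc30a10, a manganese exporter (chromosome 1, 185454848 to 185468762), had 1 read over the castrated samples, in castrated sample 2, against 12 and 11 in intact samples. The ratio of intact over castrated was 50.5 (exact 95% interval 8.21 to 2082). Slc30a3, the transporter of synaptic vesicles, and Slc30a8, that of insulin granules, had 3 and 1 reads over the castrated samples, against 1 and 2 over the intact ones.

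Among the importers, Slc39a8 carried the highest level of any transporter and was lower in castrated samples. Slc39a8, which takes up zinc, manganese and cadmium (chromosome 3, 135825279 to 135888572), was at 879, 532, 693 and 854 in castrated samples, against 1561 and 1255 in intact samples. The highest castrated sample lay well below the lower intact one. The mean was 740 ± 161 (SD, n = 4) in castrated and 1408 ± 216 (SD, n = 2) in intact samples. The log2 difference was -0.95 (95% interval -1.51 to -0.39), which did not pass the threshold in limma (adjusted p = 0.107) or edgeR (adjusted p = 0.105) but did in DESeq2 (adjusted p = 0.00234). Without castrated sample 4 limma gave an adjusted p of 0.0492, in a fit that called 4.25% of all genes lower. Slc39a8 was not called without castrated sample 1, 2 or 3. Of the summed Slc39a RNA, Slc39a8 made up 39.5% to 52.1% in castrated samples, against 61.1% and 53.2% in intact samples. That sum was at 1349 to 1795 in castrated samples, against 2555 and 2359 in intact samples.

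Slc39a4, the importer that takes up dietary zinc in the intestine (chromosome 15, 76612383 to 76617384), varied widely. It was at 47.7, 84.3, 69.8 and 195 in castrated samples, against 163 and 296 in intact samples. Castrated samples 1 to 3 lay below both intact samples, and castrated sample 4 lay between them. The log2 difference was -1.35 (95% interval -2.65 to -0.05, limma adjusted p = 0.296), and -1.74 without castrated sample 4 (adjusted p = 0.0320). The latter fit called 4.25% of all genes lower, and Slc39a4 was not called without castrated sample 1, 2 or 3. The 5 basal epithelial markers summed to 392, 1955, 407 and 1396 in castrated samples 1 to 4, against 1378 and 1526 in intact samples. Their sum was thus highest in castrated sample 2, where Slc39a4 was at 84.3. Among castrated samples, the endothelial, fibroblast, macrophage and T cell marker sums were each highest in sample 4, as Slc39a4 was. Those of luminal, smooth muscle, neutrophil, B, fat and Foxi1-positive cells were highest in other castrated samples. The part of any of these cells in the values of Slc39a4 was not tested.

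Smaller differences were seen in 4 other importers, with none past the threshold. Slc39a7, which releases zinc from the endoplasmic reticulum (chromosome 17, 34028269 to 34031682), was at 187, 173, 191 and 164 in castrated samples, against 219 and 215 in intact samples. Its groups did not overlap, with a log2 difference of -0.28 (95% interval -0.51 to -0.05, limma adjusted p = 0.218). A further annotated gene, Gm20427, covers 80.7% of its exon bases on the same strand, so reads there cannot be assigned. Slc39a14, a zinc, iron and manganese importer that interleukin-6 induces in liver (chromosome 14, 70303469 to 70351425), was at 17.8, 13.9, 18.6 and 20.5 in castrated samples, against 31.9 and 20.5 in intact samples. The highest castrated and lower intact values were the same to 3 digits, so its groups barely separate (log2 difference -0.53, 95% interval -1.08 to 0.01, limma adjusted p = 0.32). Slc39a6, a member of the same subfamily known from oestrogen-responsive breast cancer, had a log2 difference of -0.37 (95% interval -0.82 to 0.09), and its partner Slc39a10 had 0.28 (95% interval -0.08 to 0.63).

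**Figure D4:**
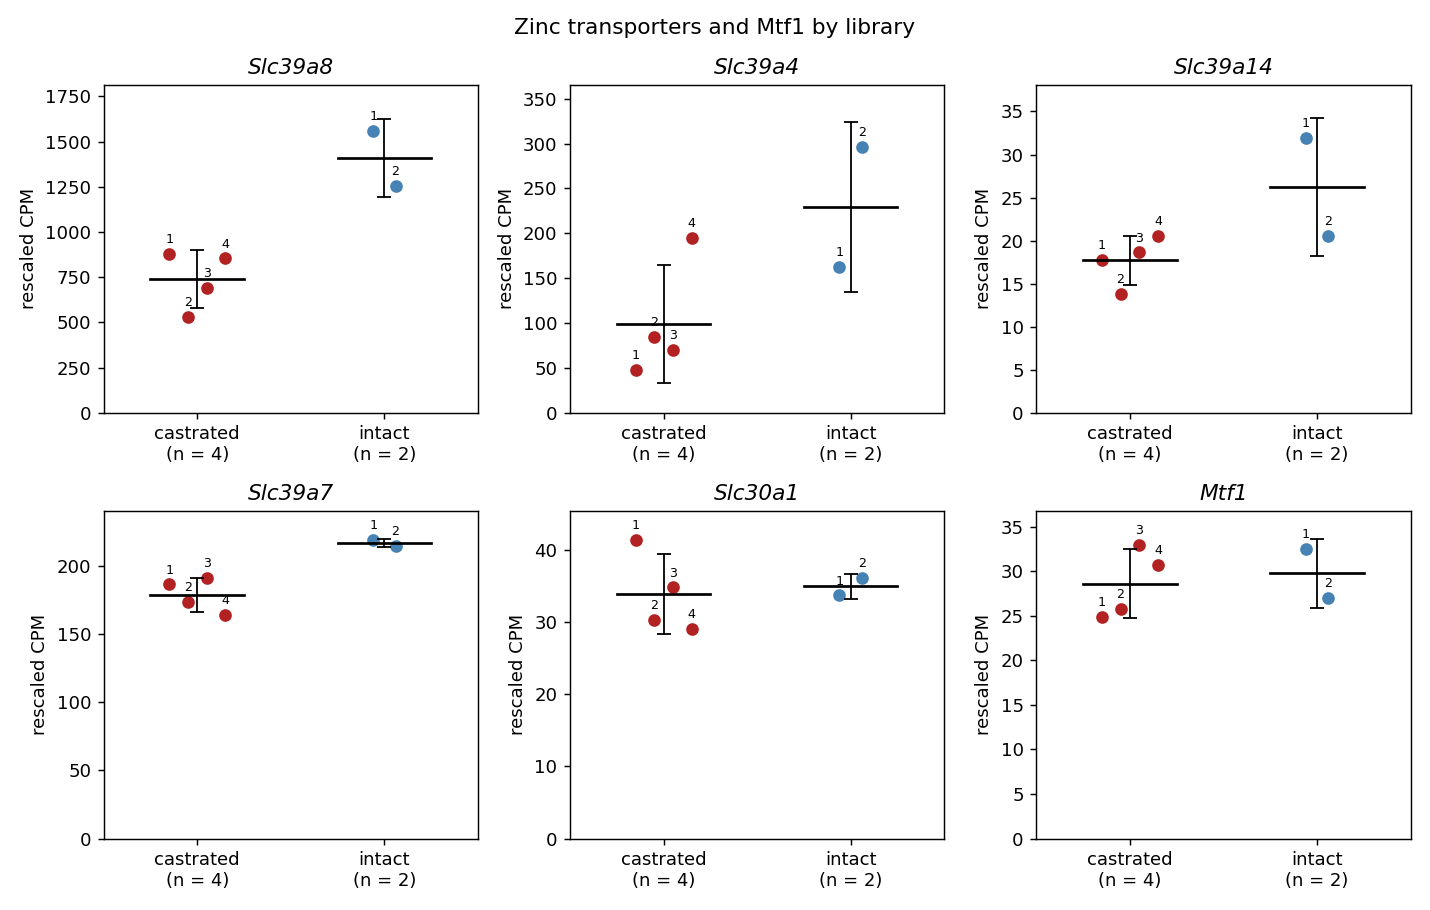
Rescaled CPM of Slc39a8, Slc39a4, Slc39a14, Slc39a7, Slc30a1 and Mtf1 in the 4 castrated and 2 intact samples (points, numbered by sample), with the mean as a line and the SD as a bar, each panel on its own axis from 0. Castrated samples lie below both intact samples for Slc39a8 and Slc39a7, castrated sample 4 lies between the intact samples for Slc39a4, and the groups overlap for Slc30a1 and Mtf1.

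Slc39a1, Slc39a2 and Slc39a3 form the importer subfamily that has been studied most in human prostate, where SLC39A1 is held to be the main route of zinc uptake. Slc39a1 (chromosome 3, 90248172 to 90253612) was at 225, 224, 220 and 240 in castrated samples, against 244 and 260 in intact samples. The groups lay apart by a narrow margin, with a log2 difference of -0.15 (95% interval -0.36 to 0.06, limma adjusted p = 0.488). A pseudogene, Slc39a1-ps, shares 21.8% of the stretches of 50 bases in its transcripts. Slc39a3 had a log2 difference of -0.05 (95% interval -0.28 to 0.17), and Slc39a2 stayed near 1 rescaled CPM in both groups, with 252 reads over the castrated and 101 over the intact samples. Slc39a9, a Golgi transporter that has also been described as a membrane androgen receptor, had a log2 difference of 0.07 (95% interval -0.15 to 0.28). Slc39a11 and Slc39a13 had -0.02 and 0.04.

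Slc39a5 and Slc39a12 stayed below the filter. Slc39a12, known from brain (chromosome 2, 14388316 to 14494977), had 5, 2, 4 and 7 reads in castrated samples, against 28 and 47 in intact samples. The reads do not overlap, and the share was 9.16-fold lower in castrated samples (exact 95% interval 5.42 to 16.3 for intact over castrated). Slc39a5, known from pancreas and intestine, had 2 reads over the castrated samples, against 1 and 11 in the intact samples, a ratio of intact over castrated of 13.2 (exact 95% interval 2.94 to 121). With no filter, limma called 5 of the 30 members lower, Mt2, Mt3, Mt4, Slc30a10 and Slc39a12, against 0.641% of all genes in that fit. The adjusted p was 0.00990 for Mt4 and Slc39a12 and 0.0230 for Slc30a10. With so few reads in castrated samples, the pseudocount of 0.5 largely sets their values there and narrows the spread. These calls are thus a description, and no support is drawn from them.

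Per kilobase of the longest coding transcript in GENCODE, Slc39a8 had the highest level among the transporters, with a mean of 209 rescaled CPM per kb in castrated and 399 in intact samples. Slc39a1 followed at 96.2 and 107, and Slc39a7 at 77.1 and 93.5. Mt2 was at 91.2 in castrated and 400.1 in intact samples. Coding transcripts of Mt1 run from 549 to 1085 bases, so no order between Mt1 and Mt2 per length is given. Among exporters Slc30a5 was highest at 27.9 and 28.3, with Slc30a4 at 15.8 and 14.1. Per kilobase of all annotated exons this order was turned round, with Slc30a5 at 12.2 and 12.3 and Slc30a4 at 15.7 and 14.0.

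Other genes of metal handling, citrate, stress and steroid receptor response were read from lists, in which 11 genes passed the threshold in limma. Over all 13898 genes tested, limma called 0.698% higher and 1.27% lower, and DESeq2 called 1293 genes. At an unadjusted limma p under 0.05, 7.84% of all genes were higher and 8.06% lower. The lists were chosen with earlier results of these data known, so their counts are a description. DESeq2 called more in each list, among them 5 of the zinc sensing and binding genes, 4 of the copper, 3 of the citrate, 7 of the receptor and 3 of the stress genes. Of the 11 genes called in limma, 5, 4, 2 and 11 were called by limma without castrated samples 1, 2, 3 and 4 in turn. Those fits made 78, 83, 46 and 1052 calls over all genes. Most of the 11 calls were also lost without intact sample 1 or 2, which leaves 1 intact sample. Fkbp5, a chaperone gene and a target of steroid receptors, was called in each of these fits. Of 11 tested genes of zinc sensing, binding or permeation outside these families, 2 rose and 0 fell, with a median log2 difference of 0.19. The risers were S100a8 and S100a9, which form calprotectin, a zinc-binding protein of neutrophils. S100a9 was at 101 ± 17.2 (SD, n = 4) in castrated and 19.3 ± 10.4 (SD, n = 2) in intact samples, a 5.48-fold rise (limma adjusted p = 0.0202). S100a8 rose 5.86-fold in limma (adjusted p = 0.0434) but was not called in edgeR (adjusted p = 0.0782). The neutrophil receptor genes Cxcr2 and Csf3r rose as well, and the 4 neutrophil markers in the files, S100a8 and S100a9 among them, summed to 194 to 339 in castrated samples, against 65.3 and 27.9 in intact samples. The part of neutrophils in the S100a8 and S100a9 values was not tested. Tmem163, also in this zinc list, had a log2 difference of 3.42 (adjusted p = 0.104 in limma, 0.0879 in edgeR and 4.93e-08 in DESeq2). It was at 20.0, 11.3, 16.9 and 1.98 in castrated samples, against 0.327 and 0.576 in intact samples. DESeq2 also called Alb higher and Slc11a2 lower.

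Of 22 zinc metalloenzymes tested, 2 fell and 0 rose in limma, with a median of 0.04. Of the 22, 11 had a p under 0.05 before adjustment and DESeq2 called 8, of which Car2, a carbonic anhydrase (log2 difference 2.11 and adjusted p = 0.0672 in limma), and Gda, guanine deaminase (0.58 and 0.0508), were higher. Both genes that fell in limma encode membrane peptidases. Anpep, aminopeptidase N, was at 275 ± 29.4 (SD, n = 4) in castrated and 611 ± 92.5 (SD, n = 2) in intact samples, a 2.22-fold fall (limma adjusted p = 0.0192). Mme, neprilysin, fell 3.67-fold (limma adjusted p = 0.0325).

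Of 18 copper genes tested, 1 rose and 0 fell, with a median of -0.02. Steap2, a reductase of copper and iron, was at 76.3 ± 16.5 (SD, n = 4) in castrated and 25.1 ± 2.28 (SD, n = 2) in intact samples, a 2.95-fold rise (limma adjusted p = 0.0243). Slc31a2, a copper transporter of endosomes, had the next smallest p (log2 difference -0.60, adjusted p = 0.0545 in limma and 0.0485 in edgeR). Of 17 iron genes tested 0 were called in limma or edgeR, 8 had an unadjusted p under 0.05, DESeq2 called 3, and the median was -0.13. The 2 with the smallest p were Hmox1, heme oxygenase (log2 difference 0.79, limma adjusted p = 0.0704), and Slc11a2, the iron importer DMT1 (log2 difference -0.78, limma adjusted p = 0.0860).

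Of 19 citrate genes tested, 1 rose and 0 fell, with a median of -0.01. Ank, whose product exports pyrophosphate and citrate, was at 161 ± 13.6 (SD, n = 4) in castrated and 82.9 ± 6.65 (SD, n = 2) in intact samples, a 1.93-fold rise (limma adjusted p = 0.0167). Pcx, pyruvate carboxylase, had a log2 difference of -0.93 (limma adjusted p = 0.0831). Of 16 genes of oxidative and heavy metal stress tested, 1 fell and 0 rose, with a median of -0.03: Gpx2, a glutathione peroxidase, fell 2.27-fold (limma adjusted p = 0.0262). Hmox1, which heavy metals also induce, had the next smallest p in that list.

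Of 14 tested genes listed here as targets shared by glucocorticoid and androgen receptors, 4 fell and 0 rose, with a median log2 difference of -0.52. Induction of each gene by both receptors was not checked. Sgk1, a kinase that regulates sodium transport, was at 92.0 ± 33.2 (SD, n = 4) in castrated and 412 ± 44.3 (SD, n = 2) in intact samples, a 4.67-fold fall (limma adjusted p = 0.0298). Tsc22d3, which encodes the leucine zipper protein GILZ, fell 2.08-fold (limma adjusted p = 0.0415), beside Fkbp5 and the transcription factor gene Zbtb16 with log2 differences of -2.95 and -3.71. Of the 14 genes, 4 had a positive log2 difference, and none of these was called. The part of either receptor in the fall of Mt2 was not tested.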

How the data were processed

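RNA was sequenced from 4 castrated and 2 intact prostate samples. The authors deposited 1 table of CPM per sample, whose values sum to 1000000; the submitters' processing notes name TopHat2, HTSeq, edgeR and build mm10, without versions or settings. Dividing a sample's values by its smallest value above 0 gave whole numbers for 100% of genes (tolerance 1e-06), so whole reads were recovered. The count tests on those reads called 203 genes in edgeR and 1293 in DESeq2, against 274 in limma.

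CPM was divided by median-of-ratios size factors (0.981 to 1.05). limma 3.58.1 in R 4.3.3, with a mean-variance trend, was fitted to log2(rescaled CPM + 0.5) of genes that reached a deposited CPM of 1 in 2 or more samples. P-values are two-sided, with Benjamini-Hochberg adjustment over all genes tested and a threshold of 0.05. Fold changes come from that scale, so those of weak genes are understated. Alternatives were other pseudocounts, filters, scalings, moderation, a replicate block, each sample left out, edgeR 4.0.16 (quasi-likelihood) and DESeq2 1.42.0. The steps were tested on simulated counts.

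Where a sample had no read, the floor is 3 reads per sample, or 0.0507 to 0.0687 CPM; floors and intervals on reads cover counting error only. The members and lists were chosen with earlier results of these data known. Every member is accounted for; values in every sample are given for called members, for tested members whose groups lie apart with a log2 difference of at least 0.5 either way, for the highest member per length of the metallothioneins, Slc30a and Slc39a genes, and for Mt1, Mt2, Mtf1 and Slc30a1. Reads of members below the filter, values of Slc30a4, Slc39a1, Slc39a4 and Slc39a7, and the names Car2, Gda, Tmem163 and Alb were added after values were seen. Of the other lists, called genes and the 2 with the smallest p are named. Gene positions and lengths are from GENCODE M21 for GRCm38, the assembly that mm10 names.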

Additional observations from a re-analysis of the deposited data

Results flagged for a closer look

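Of the 29 members with any spread in castrated samples, Slc39a9 had 1 castrated sample far from the other 3: it was at 136 rescaled CPM in castrated sample 3, against 120.1 to 123 in the other castrated samples. Chance gives such a gap in about 1 in 20 groups of this size. Slc30a10 and Slc30a8 were each at 0.0179 in castrated sample 2, against 0 in the other castrated samples. That is a single read each, which meets the same criterion by its construction, so nothing is read from it.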

How the results depend on the processing

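Mt2 was called lower in each setting with the 6 samples. Mt3 was called in each except the replicate block, where its adjusted p was 0.116, and a minimum mean CPM of 5, which removed it. As Mt3 passed the main filter through its intact samples alone, its calls are a description. The count of members called lower was 2 with the main settings, 5 with no filter, 1 with a minimum mean CPM of 5, 4 with the replicate block and 4 in DESeq2. It ran from 0 to 5 with 1 sample left out, and members called higher numbered 0 throughout. Over all genes, 97 were called higher and 177 lower. Those called higher numbered 45 with no filter, 176 with the replicate block, 54 in edgeR and 662 in DESeq2, which called 631 lower, and ran from 0 to 466 with 1 sample left out, against 1 to 586 called lower.

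Replicate numbers are shared by 2 pairs of samples, and nothing says that they mark a shared animal or batch. Deviations of same-numbered samples correlated at 0.0755 for number 1 and 0.226 for number 2. Castrated sample 3 with intact sample 1, of unlike numbers, gave 0.106. Deviations of the 2 intact samples mirror each other, so each value recurs with the opposite sign for the other intact sample. A shared number effect cannot be read from these values. With the number as a block, in which castrated samples 3 and 4 have no partner, Mt1, Mt2, Slc39a4 and Slc39a8 were called.

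Members near 0 changed sign. On CPM as deposited, which by its construction moved the median of all genes to 0.0466, the log2 difference was 0.0155 for Mtf2, 0.0274 for Slc30a5 and 0.0304 for Slc39a11. For the other settings the cause was not tested. With the replicate block it was 0.0205 for Slc30a1, 0.148 for Slc39a11, -0.0705 for Slc39a13 and -0.0700 for Slc39a2. Slc39a11 was at 0.0105 in edgeR and 0.0153 in DESeq2. With 1 sample left out the ranges were -0.194 to 0.0656 for Mtf1, -0.109 to 0.0414 for Mtf2, -0.157 to 0.0102 for Slc30a1, -0.0580 to 0.0128 for Slc30a5, -0.0215 to 0.0649 for Slc30a7, -0.00667 to 0.0657 for Slc30a9, -0.160 to 0.130 for Slc39a11, -0.0464 to 0.0879 for Slc39a13 and -0.0145 to 0.216 for Slc39a2. Of the 11 other listed genes that were called, 7 were called with no filter, 7 with the replicate block, 10 in edgeR and 11 in DESeq2. Members with few reads are limited by depth.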
